A study of Mus musculus with 9 samples.

Results

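Colony-stimulating factors are secreted proteins that keep myeloid cells alive and drive their growth and maturation. The genes described here are 7 members of that system: the ligand genes Csf1 and Il34, the receptor gene Csf1r that both ligands share, the receptor chain genes Csf2ra, Csf2rb and Csf2rb2, and the receptor gene Csf3r. They were selected by symbol from the 27179 genes of the deposited table, and each of the 7 symbols matched 1 row. The 7 were chosen on a view of the normalized counts of the comparison described here. Their differences between groups are therefore a description. Counts of members called in fits over all genes are given beside the share of all genes, and nothing is read from them.

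The liver of 9 wild-type C57BL/6J mice was profiled by bulk RNA sequencing of polyA RNA. Every mouse was injected behind the eye at 17 months of age with an adeno-associated virus (AAV8) vector, and a piece of the m-lobe was taken 3 weeks later. In all mice the vector carried saCas9, a small Cas9 nuclease, under TBG, a promoter active in hepatocytes, together with a U6-driven guide RNA, at 300000000000 vector genomes per mouse. The guide was directed at Rosa26, a neutral cutting control, in 4 mice (sgRosa26, libraries A to D) and at Ccnd1, the gene of cyclin D1, in 5 mice (sgCcnd1, libraries E to I). No uninjected mice were compared, so both groups carry the virus, the nuclease and a cut. Editing was aimed at hepatocytes, while RNA came from every cell of the tissue piece.

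CSF1 and IL-34 bind the receptor tyrosine kinase CSF1R, on which tissue macrophages, including the Kupffer cells of the liver, depend for survival. GM-CSF signals through an alpha chain that is its own (Csf2ra) and a beta chain that it shares with IL-3 and IL-5 (Csf2rb). Mice have a near-copy of that beta chain, Csf2rb2, which serves IL-3. G-CSF acts through CSF3R, which drives neutrophil production and mobilization. The beta chains and CSF3R have no kinase domain and signal through JAK kinases and STAT proteins. Transcription of the receptor genes in myeloid cells is driven by the ETS-family factor PU.1, encoded by Spi1, with C/EBP and RUNX factors.

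The near-identity of the beta chain genes bears on how their reads can be counted, so the first 150 coding bases of each are shown, from GENCODE M21 transcripts on GRCm38, with the 6 differing bases in capitals.
Csf2rb: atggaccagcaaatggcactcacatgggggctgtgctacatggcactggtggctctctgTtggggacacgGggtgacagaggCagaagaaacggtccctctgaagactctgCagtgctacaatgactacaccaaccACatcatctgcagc
Csf2rb2: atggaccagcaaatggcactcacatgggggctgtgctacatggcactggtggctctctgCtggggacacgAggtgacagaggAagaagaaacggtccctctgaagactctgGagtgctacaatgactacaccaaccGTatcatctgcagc
Over the 2631 aligned bases of the coding sequences (2691 bases in Csf2rb and 2637 in Csf2rb2), 95.2% were identical. Of all windows of 50 bases along the longest coding transcript of Csf2rb, 18.4% also occurred without a mismatch in a coding transcript of Csf2rb2. With windows of 100 bases this share was 6.96%. The read length and the treatment of reads that map to several places are not given in the sources used here, so some reads of one gene may have been lost or counted to the other.

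Promoter sequences are shown because PU.1, whose own gene is described further on, is known as a regulator of the receptor genes. RefSeq windows on GRCm38.p6, from 250 bases before the start to the base before it, were at hand for 4 of the 7 members. Each was searched on both strands for GAGGAA, the core of the PU.1 element, for TTNNGNAA (C/EBP) and for TGANTCA (AP-1). Capitals mark GAGGAA or its reverse complement. The RefSeq start of Csf3r lies 109 bases inside the GENCODE gene, so only the 30 bases around its match are shown.
Csf2ra, chr19:61228419-61228668, minus strand: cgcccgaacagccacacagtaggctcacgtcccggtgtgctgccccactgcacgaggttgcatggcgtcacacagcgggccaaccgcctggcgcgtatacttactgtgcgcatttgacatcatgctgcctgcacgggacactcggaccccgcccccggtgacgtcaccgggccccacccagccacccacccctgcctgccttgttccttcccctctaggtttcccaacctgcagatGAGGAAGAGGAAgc
Csf3r, chr4:126024561-126024590, plus strand: cctccttcctgaGAGGAAggggctgtctat
Csf2rb2, chr15:78305722-78305971, minus strand: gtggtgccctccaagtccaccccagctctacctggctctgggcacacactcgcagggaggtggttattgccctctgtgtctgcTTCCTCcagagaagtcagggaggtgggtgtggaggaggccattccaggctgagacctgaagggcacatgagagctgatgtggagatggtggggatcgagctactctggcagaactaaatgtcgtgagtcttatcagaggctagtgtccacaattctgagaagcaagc
Csf1, chr3:107760470-107760719, minus strand: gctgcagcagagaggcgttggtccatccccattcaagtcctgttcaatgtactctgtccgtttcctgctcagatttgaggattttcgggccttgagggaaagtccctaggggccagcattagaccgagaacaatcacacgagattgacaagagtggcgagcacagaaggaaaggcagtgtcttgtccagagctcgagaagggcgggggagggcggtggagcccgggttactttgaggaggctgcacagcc
GAGGAA was present in 3 of the 4 windows, against 23.3% of all 32851 RefSeq windows of this length. Csf2ra had 2 adjoining copies, at positions -14 and -8 from its RefSeq start, which lies 11 bases inside the GENCODE gene, so that the copy at -8 and part of the copy at -14 fall within that gene. Csf3r had 1 copy at position -86 from its RefSeq start, and this copy lies wholly within the GENCODE gene. The copy of Csf2rb2 lay at position -167 on the opposite strand. Csf1 had none of the 3 motifs in its window. A C/EBP match was found only in Csf2ra (36.8% of all windows had one) and an AP-1 match in none of the 4 (6.75% of all windows). A match is a string of letters here, not a measured binding site, and the part of PU.1 in the members' values was not tested.

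The libraries held between 10.8 and 20.2 M reads on genes (M, 1e6 reads). The targeted gene separated the groups: Ccnd1 lay between 625 and 867 normalized counts in the 4 sgRosa26 libraries and between 325 and 428 in the 5 sgCcnd1 libraries. Normalized counts are reads divided by 1 scaling factor per library. Library H of the sgCcnd1 group stands apart in that the Y-linked Ddx3y was at 2.00 normalized counts there and at 810 to 1154 in the other 8 libraries. Xist, the transcript of the inactive X chromosome, was at 2.00 normalized counts in H and at 0 to 3.92 in the other 8. Albumin (Alb), the defining hepatocyte transcript, marked every library as liver, at 1247280 to 1677960 normalized counts. Depth gave 335 to 794 reads per library for Csf1r, 65 to 143 for Csf2ra, 18 to 55 for Csf2rb2 and 17 to 35 for Il34, so the last 2 carry the largest counting error.

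**Figure D1:**
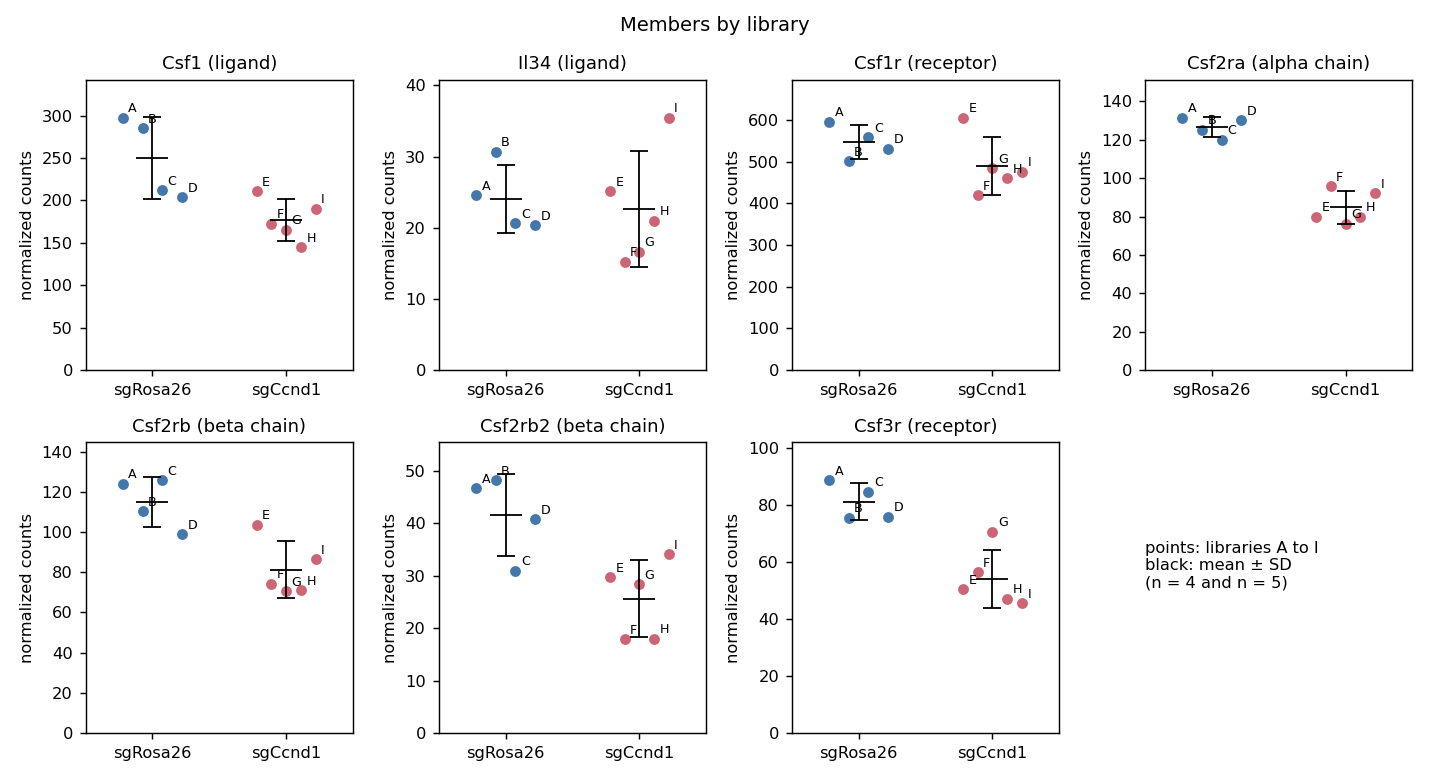
Normalized counts (vertical axes, from 0) of the 7 genes in the 4 sgRosa26 and 5 sgCcnd1 libraries, 1 lettered point per library, with the mean and SD of each group in black. For Csf2ra and Csf3r every sgCcnd1 point lies below every control point, and for the other 5 genes the groups overlap.

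All 7 genes had a lower mean in sgCcnd1 than in sgRosa26. The means were 61.5% (Csf2rb2) to 94.3% (Il34) of the control mean. The GM-CSF receptor chain Csf2ra and the G-CSF receptor Csf3r were the only members whose groups did not overlap. A minimum mean of 10 over the libraries left 12993 genes to test, all 7 members among them. Of these genes, 47.1% had a negative log2 fold change and 1.97% had every sgCcnd1 library below every control. Fold changes here are differences of means of log2(normalized count + 1), sgCcnd1 minus sgRosa26, which understates changes of low genes. The median over the members was -0.50, beside 0.01 over all genes tested.

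The macrophage growth factor Csf1 (Entrez 12977, chr3:107741048-107760469) was at 298, 285, 212 and 204 normalized counts in A to D and at 211, 173, 165, 145 and 190 in E to I. The controls formed a high pair (A and B) and a low pair (C and D), and only E of the sgCcnd1 group lay within the control range. The mean was 250 ± 48.4 in sgRosa26 (SD, n = 4) and 177 ± 25.1 in sgCcnd1 (SD, n = 5), a log2 fold change of -0.49 (SE 0.15). The other ligand of the same receptor, Il34 (Entrez 76527, chr8:110741829-110805924), overlapped fully. It was at 24.6, 30.7, 20.6 and 20.4 normalized counts in A to D and at 25.2, 15.2, 16.6, 21.0 and 35.5 in E to I. Both the lowest and the highest library were from the sgCcnd1 group. Its mean was 24.1 ± 4.80 in sgRosa26 (SD, n = 4) and 22.7 ± 8.14 in sgCcnd1 (SD, n = 5). The log2 fold change of Il34 was -0.13 (SE 0.26), and it moved between -0.30 and -0.01 when 1 library was left out. Il34 shares 97 exon bases with antisense genes in GENCODE. Whether counting used strand is not given in the sources used here.

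The receptor Csf1r (Entrez 12978, chr18:61100598-61132149) had the highest counts of the members. It was at 595, 501, 558 and 531 normalized counts in A to D and at 605, 419, 485, 460 and 475 in E to I. Library E was the highest of all 9, and the other 4 sgCcnd1 libraries were below every control. The mean was 546 ± 40.2 in sgRosa26 (SD, n = 4) and 489 ± 69.8 in sgCcnd1 (SD, n = 5), a log2 fold change of -0.17 (SE 0.11). Without library E it was -0.25. Csf1r shares 873 exon bases with Hmgxb3 on the opposite strand, which was at 261 ± 33.0 normalized counts in sgRosa26 (SD, n = 4) and 280 ± 35.3 in sgCcnd1 (SD, n = 5).

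The receptor chain of GM-CSF showed the least spread within groups, relative to its mean. Csf2ra (Entrez 12982, chr19:61223957-61228429, GRCm38) was at 132, 125, 120 and 130 normalized counts in libraries A to D. In libraries E to I it was at 80.0, 95.8, 76.4, 80.0 and 92.3. The highest sgCcnd1 library thus lay below the lowest control. Its mean was 127 ± 5.17 in sgRosa26 (SD, n = 4) and 84.9 ± 8.56 in sgCcnd1 (SD, n = 5), a log2 fold change of -0.58 (SE 0.11). Leaving out any 1 library moved this value only between -0.62 and -0.54.

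The shared beta chain Csf2rb (Entrez 12983, chr15:78325752-78353847) was at 124, 110, 126 and 99.1 normalized counts in A to D and at 104, 74.3, 70.5, 71.0 and 86.6 in E to I. Of the sgCcnd1 libraries only E reached into the control range. The mean was 115 ± 12.6 in sgRosa26 (SD, n = 4) and 81.2 ± 14.2 in sgCcnd1 (SD, n = 5), a log2 fold change of -0.50 (SE 0.14). Csf2rb2 (Entrez 12984, chr15:78282507-78305721), which lies beside it on the opposite strand, was at 46.7, 48.2, 31.0 and 40.79 normalized counts in A to D. It was at 29.7, 17.9, 28.4, 17.99 and 34.1 in E to I. Here I of the sgCcnd1 group and C of the controls crossed. Its mean was 41.7 ± 7.82 in sgRosa26 (SD, n = 4) and 25.6 ± 7.31 in sgCcnd1 (SD, n = 5). The log2 fold change of Csf2rb2 was -0.71 (SE 0.24), the most negative of the members and, after Il34, the least precise.

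Because reads of the beta chains may be exchanged, their sum was also taken. It was 171, 159, 157 and 140 normalized counts in A to D and 133, 92.2, 98.9, 89.0 and 121 in E to I. In the sum every sgCcnd1 library lay below every control, which was not so for either gene alone. The log2 fold change of the sum was -0.56.

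The G-CSF receptor Csf3r (Entrez 12986, chr4:126024550-126044440) had 88.5, 75.4, 84.5 and 75.8 normalized counts in A to D. It had 50.3, 56.4, 70.5, 47.0 and 45.4 in E to I. Library G, the highest of its group, was still below the lowest control. The mean was 81.0 ± 6.53 in sgRosa26 (SD, n = 4) and 53.9 ± 10.2 in sgCcnd1 (SD, n = 5), a log2 fold change of -0.59 (SE 0.15). Neutrophils are the main carriers of this receptor, and their defining transcripts were scarce in these livers. Ly6g was at 0 in 8 of the 9 libraries. S100a8, another neutrophil transcript, was at 26.2 ± 15.9 normalized counts in sgRosa26 (SD, n = 4) and 13.5 ± 6.51 in sgCcnd1 (SD, n = 5), with overlap. The summed level of 10 neutrophil markers was 75.4 to 166 normalized counts in sgRosa26 and 69.4 to 156 in sgCcnd1. Of the 4 markers tested, 3 were negative, beside 47.1% of all genes, with a median log2 fold change of -0.22. Elane, the positive one, was at 82.4 normalized counts in library F, where the sum was 156. The part of neutrophil transcripts in the Csf3r values was not tested.

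**Figure D2:**
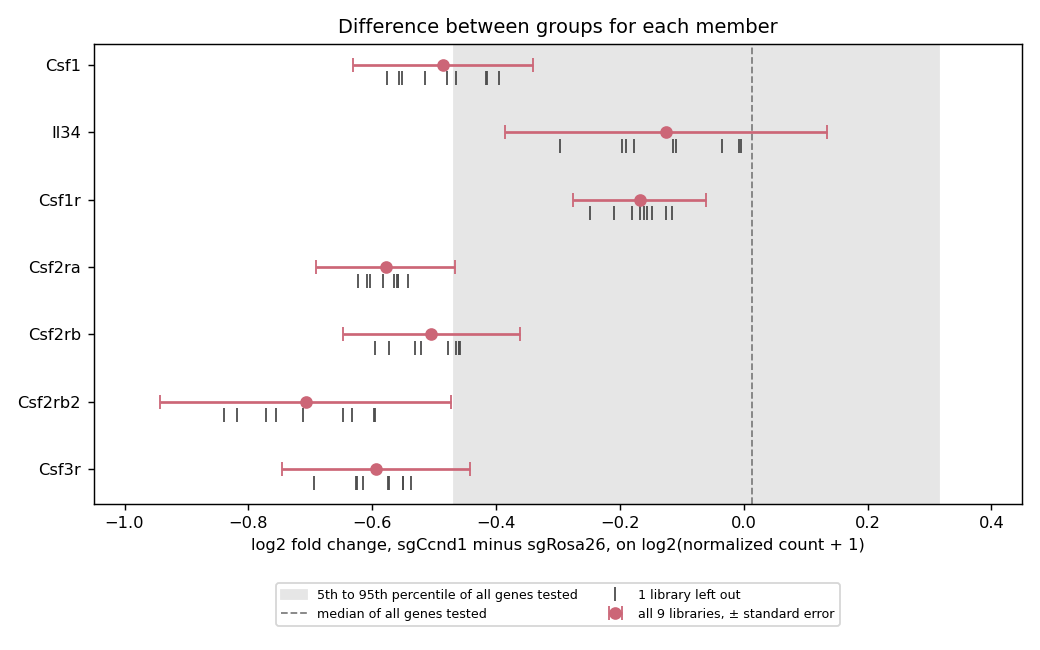
Log2 fold change of each member (horizontal axis, sgCcnd1 minus sgRosa26) with its standard error, and below it the values with 1 library left out (ticks), beside the 5th to 95th percentile of the 12993 genes tested (-0.47 to 0.32, grey). Csf1r and Il34 lie inside the grey band, and the other 5 members lie to its left.

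In the limma fit across all 12993 genes, 0 of the 7 members had an adjusted p under 0.05, where 0.0077% of all genes did (1 gene, Ccnd1). At an unadjusted p under 0.05 there were 5 members, all lower, beside 5.74% of all genes called lower in this way. With edgeR 0 of the 7 were called, and with DESeq2 1 was called, Csf2ra, where DESeq2 called 0.585% of all genes lower. Without library H, DESeq2 called 0 of the 7, with the adjusted p of 2 members undefined, and 0.192% of all genes lower. The log2 fold change of Csf2ra in that fit was -0.57. How many members did not overlap turned on single libraries: it was 2 of 7 with all libraries, 4 without D (Csf1 and Csf2rb added) and 5 without E (Csf1, Csf1r and Csf2rb added). The share of all genes tested with every sgCcnd1 library below every control was 3.84% without D and 4.27% without E.

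Levels of different genes were compared per kilobase of exon, using the merged exons of GENCODE M21, which may differ from the annotation the authors counted on. In the sgRosa26 libraries the order was Csf1r with 94.6 ± 6.97 normalized counts per kb, Csf1 with 47.3 ± 9.17, Csf2ra with 44.2 ± 1.80 and Csf3r with 22.5 ± 1.81 (SD, n = 4). Csf2rb followed with 15.8 ± 1.73 normalized counts per kb, Il34 with 12.3 ± 2.45 and Csf2rb2 with 8.79 ± 1.65 (SD, n = 4). Csf1 and Csf2ra overlapped in range, as did Csf2rb and Il34, so their order is not settled by these samples. In the sgCcnd1 libraries Csf3r and Csf2rb overlapped as well. Per kilobase, Csf1 exceeded Il34 in every library, by 1.99 to 4.49 times.

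**Figure D3:**
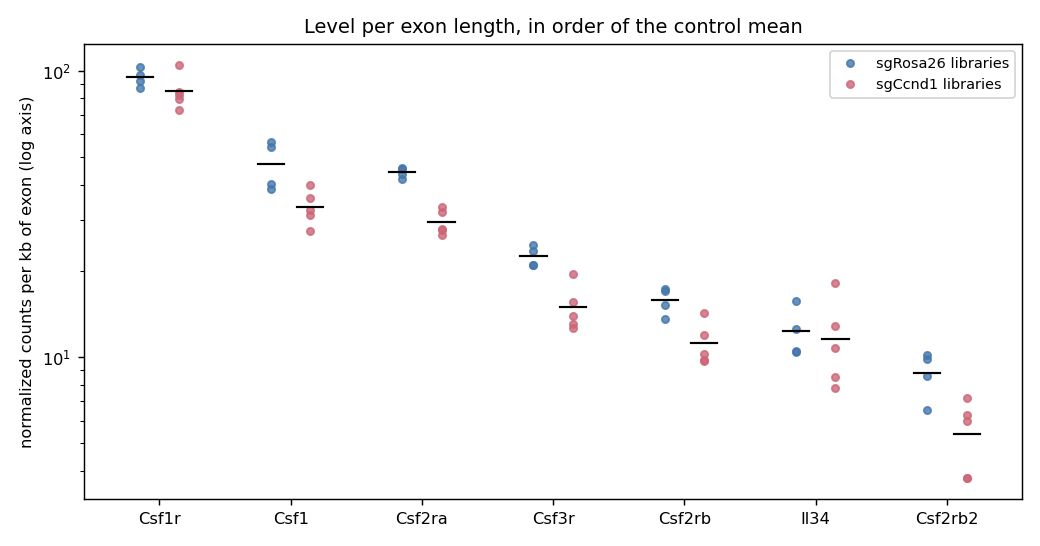
Level of each member in normalized counts per kb of exon (log axis), 1 point per library and a bar at each group mean, ordered by the control mean. Csf1r, at 72.6 to 105 over the 9 libraries, lies above the points of the other members, and Csf2rb2 is lowest on average.

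Among genes of the same pathway that are not members, the cognate ligands were near or at 0. GM-CSF (Csf2) had 1 read in 1 of the 9 libraries, G-CSF (Csf3) 1 read in each of 2 libraries, and Il3 none. A list of 12 related cytokines and receptors had 6 genes abundant enough to test. Of these 6, 0 passed in limma in either direction, all 6 had negative values and the median log2 fold change was -0.23. The IL-3 receptor alpha chain Il3ra, which pairs with the beta chains, had a mean of 45.8 ± 5.73 normalized counts in sgRosa26 (SD, n = 4) and 34.0 ± 6.42 in sgCcnd1 (SD, n = 5). Flt3, the receptor tyrosine kinase of dendritic cell precursors, had a log2 fold change of -0.55 (SE 0.33), and the stem cell factor gene Kitl one of -0.27 (SE 0.21).

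Of 32 genes that carry or dampen signals from these receptors, 31 were tested, and 0 passed in limma in either direction. Their median log2 fold change was -0.03, with 17 of 31 negative. Stat5a, a main relay of the GM-CSF and IL-3 receptors, was at 328 ± 28.4 normalized counts in sgRosa26 (SD, n = 4) and 254 ± 18.03 in sgCcnd1 (SD, n = 5), with all 5 sgCcnd1 libraries below the controls (limma adjusted p = 0.253). Stat5b, its close relative, differed by 0.04 on the log2 scale (limma adjusted p = 0.945). Inpp5d, which encodes the lipid phosphatase SHIP1 of blood cells, was at 106 ± 2.08 and 72.4 ± 14.3 normalized counts, again without overlap (limma adjusted p = 0.255).

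Of 13 transcription factors of myeloid cells, 11 were tested and 0 passed in limma, with a median log2 fold change of -0.17 and 8 of 11 negative. Spi1, which encodes PU.1, was at 93.4, 80.6, 73.2 and 97.1 normalized counts in A to D and at 61.7, 50.1, 61.7, 48.0 and 36.9 in E to I. The groups did not overlap, and the log2 fold change came to -0.74 (SE 0.17, limma adjusted p = 0.245). Runx1, a partner of PU.1, had a log2 fold change of -0.93 (SE 0.28) on a low level of 24.2 ± 2.97 normalized counts in sgRosa26 (SD, n = 4) and 12.8 ± 4.87 in sgCcnd1 (SD, n = 5; limma adjusted p = 0.296). Over the 48 pathway genes tested, 12 had an unadjusted p under 0.05 in limma, 11 of them lower. The same held for 1424 of all 12993 genes, with 5.74% of all genes lower at that p. At an adjusted p under 0.05, edgeR called 0 of the 48. DESeq2 called 2, both lower, among them Spi1 (adjusted p = 0.0306), beside 0.585% of all genes called lower. Without library H, DESeq2 called 1 of the 48, where it called 0.192% of all genes lower. Spi1 was not called there, while its log2 fold change in limma without H was -0.72.

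**Figure D4:**
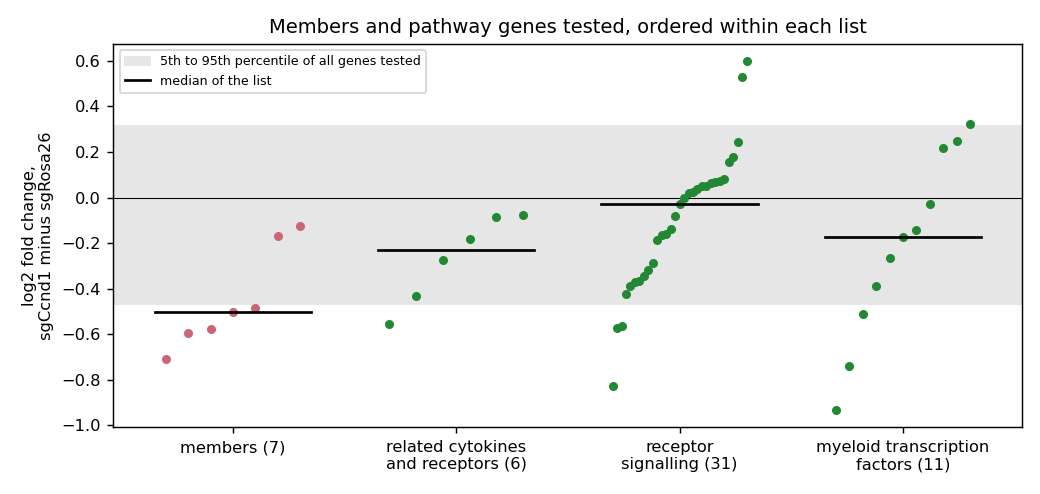
Log2 fold change (vertical axis, sgCcnd1 minus sgRosa26) of the 7 members and of the pathway genes tested in 3 lists of 6, 31 and 11 genes, ordered within each list, with the list median as a bar and the 5th to 95th percentile of all genes tested in grey. The list medians are -0.50, -0.23, -0.03 and -0.17, and all 7 members and all 6 related cytokine and receptor genes lie below 0.

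In bulk tissue, fewer cells of a type and less RNA per cell cannot be told apart. Markers of the cells that carry these receptors were therefore set beside them. The 8 Kupffer cell markers had a summed level of 1844 to 2786 normalized counts in sgRosa26 and 1932 to 2430 in sgCcnd1, with 4 of 8 members negative and a median log2 fold change of 0.00. Clec4f, which defines Kupffer cells, was at 578, 638, 664 and 903 normalized counts in A to D and at 784, 657, 681, 528 and 673 in E to I. The groups overlapped in both.

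The 10 markers of monocytes and other macrophages differed from this in their sum, though not each of them did. Their summed level was 2510 to 3080 normalized counts in sgRosa26 and 1753 to 2073 in sgCcnd1, with all 5 sgCcnd1 libraries below every control. Of the 8 tested, 7 were negative, beside 47.1% of all genes. None passed in limma, and 2 (Lyz2 and Mpeg1) were called lower by DESeq2, beside 0.585% of all genes. Mpeg1 and Lyz2, broad macrophage genes, made up most of the sum, and Ccr2, the chemokine receptor of inflammatory monocytes, was at 92.2, 85.0, 51.6 and 51.5 normalized counts in A to D and at 51.1, 34.9, 42.1, 21.99 and 41.2 in E to I. Of the 8 tested, only 3 (Ccr2, Lyz2 and Mpeg1) were without overlap between groups, beside 1.97% of all genes. Ly6c2, another monocyte marker, overlapped, at 17.5 to 31.1 normalized counts in sgRosa26 and 5.87 to 56.4 in sgCcnd1. The part of these markers in the values of Csf2ra, Csf2rb and Csf3r was not tested.

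Other cell types that can hold these transcripts varied as follows. The 7 dendritic cell markers summed to 191 to 242 normalized counts in sgRosa26 and 132 to 199 in sgCcnd1. The 8 T and NK cell markers summed to 87.3 to 226 and 49.98 to 156, with 4 of 5 sgCcnd1 libraries below the controls. Library E alone made the T and NK sums overlap. Of the 5 T and NK markers tested, all 5 were negative, with an unadjusted limma p under 0.05 for each (5.74% of all genes were lower at that p) and an adjusted p under 0.05 for 0. Their median log2 fold change was -1.07. Their mean sum in sgCcnd1 was 50.9% of that in sgRosa26. B cell markers were at 105 to 174 and 55.4 to 180. Eosinophil and mast cell markers were almost absent, with at most 7.89 normalized counts in all 6 together and Mcpt4 at 0 in every library. The stromal cells that can supply CSF1 were measured through stellate cell markers, at 3323 to 4371 normalized counts in sgRosa26 and 2624 to 3928 in sgCcnd1, and endothelial markers, at 1844 to 2828 and 2076 to 2970. Both lists overlapped between the groups, but 3 of 5 sgCcnd1 stellate sums lay below every control and 0 of 5 endothelial sums did. The median log2 fold change was -0.23 over the 7 stellate markers, 6 of them negative, and -0.05 over the 6 endothelial markers, 4 of them negative. Cholangiocyte markers were at 928 to 1906 and 750 to 1165 normalized counts. Hepatocyte markers were within 1739340 to 2029640 in sgRosa26 and 1623050 to 2106160 in sgCcnd1. Library E, without which Csf1, Csf1r and Csf2rb did not overlap, had the highest endothelial sum of the 9, at 2970, and the highest B cell sum, at 180 normalized counts. Csf1 and Csf2rb did not overlap without control D either. The part of these cell types in the members' values was not tested.

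**Figure D5:**
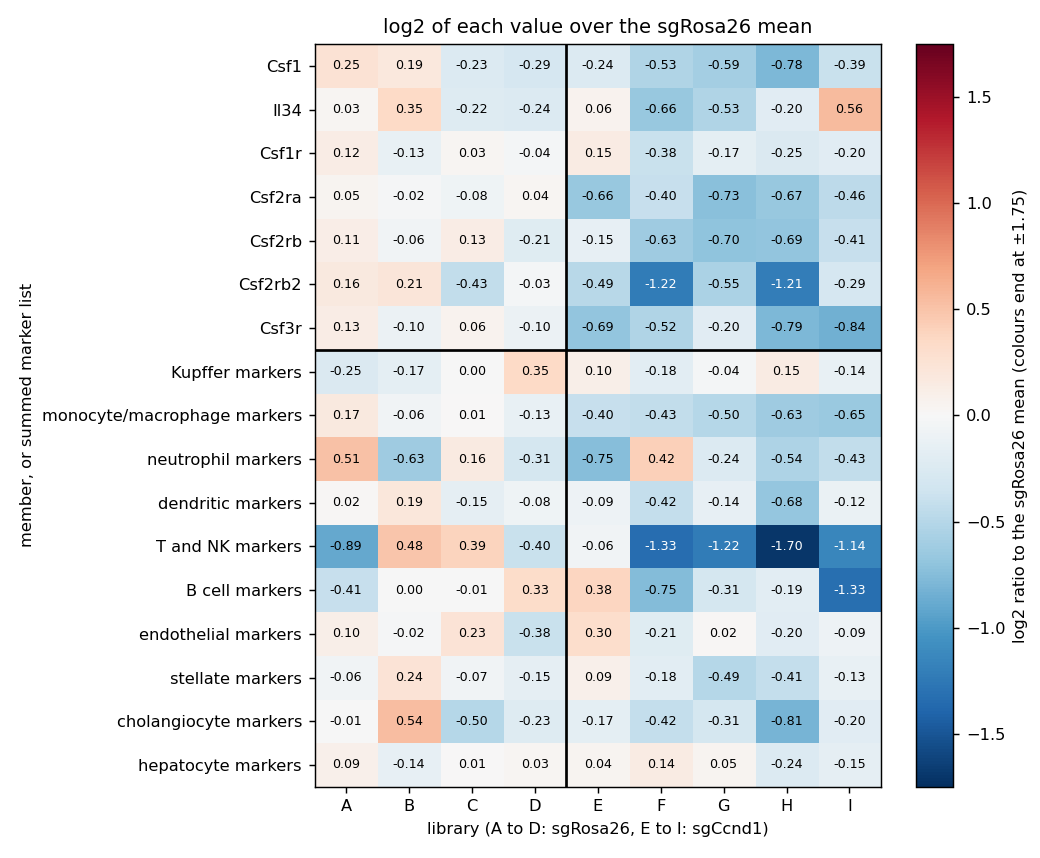
Log2 ratio of each value to its sgRosa26 mean for the 7 members (upper block) and for the summed levels of 10 marker lists (lower block), by library, with blue below and red above the control mean. Csf1, Csf2ra, Csf2rb, Csf2rb2 and Csf3r are below 0 in all 5 sgCcnd1 libraries, as are the sums of monocyte and macrophage, dendritic, T and NK, and cholangiocyte markers, while the Kupffer cell sum runs from -0.18 to 0.15 there.

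The genes most like Csf1r across libraries were sought among 10410 others whose mean reached 50. Likeness was the Pearson correlation of log2 values after each group's mean was removed, over the 9 libraries. The top 5 were Pxn (0.97), Clasp1 (0.95), Zfp646 (0.94), Dse (0.93) and Zfp33b (0.93). None of them is a macrophage marker of the lists used here. For Csf1 the leading genes were Papln (0.97), Dcdc2a (0.97), Mfge8 (0.96) and Stk17b (0.94). All are near the top of 10410 ranked values over 9 libraries and are given as a description only.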

How the data were processed

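The 9 libraries were polyA RNA-seq of mouse liver. The authors deposited 1 table of normalized counts, a never-negative signal per gene. Per the submitters' processing notes, Trim Galore 0.6.7, HISAT2 2.2.1, featureCounts 2.0.3, FastQC 0.74, MultiQC and DESeq2 2.11.40.8 were used with mm10 (GRCm38). Annotation and strand use are not given in the sources used here. In every library, 100% of the deposited values were whole multiples of 1 number (tolerance 0.01 reads), so reads could be recovered. For library H that number is so near 1 that rounding could not be told apart. Columns name a guide and an animal, so libraries were matched to groups only and lettered in column order. The labels do not describe how animals were drawn, and p-values set a difference between groups against the spread of these samples within groups.

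The test was limma 3.58.1 (R 4.3.3) on log2(normalized count + 1) with an intensity trend, two-sided, adjusted by Benjamini-Hochberg over 12993 genes with a mean of at least 10, at a threshold of 0.05. Recovered reads were tested with edgeR 4.0.16 and DESeq2 1.42.0, whose undefined adjusted p-values (1010 genes) stayed undefined. The fits were checked on simulated data. The members and lists were chosen with earlier results of these data known. Named were all members, the 3 genes of each pathway list with the smallest p where fewer than 3 passed, the defining markers and the 5 genes most like Csf1r and Csf1. Some genes under this rule are not reported here. Genes named outside that rule (Csf2, Csf3, Il3, Stat5b, Hmgxb3, Mpeg1, Lyz2, Elane, Mcpt4, Ddx3y, Xist) were chosen after their values were seen. Alternatives were other pseudocounts, filters, scalings and tools, and leaving out each library. Counting error is the only error that depth covers. Sequences came from RefSeq (GRCm38.p6) and GENCODE M21, aligned with Biopython 1.88, and figures from matplotlib 3.10.9.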

Additional observations from a re-analysis of the deposited data

Results flagged for a closer look

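Of 56 groups of values examined (members, named pathway genes, marker sums and Ccnd1 in each group), 1 held a library far from the others, where chance gives about 2.8. In sgCcnd1 library E the summed T and NK cell markers stood at 156 normalized counts, and libraries F to I lay between 49.98 and 73.8. The same library held the highest Csf1r, Csf1 and Csf2rb values of its group.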

How the results depend on the processing

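DESeq2 and edgeR without library H were added after seeing the data. No paired analysis was possible because column names give animal numbers and no replicate. All 7 members kept a negative log2 fold change wherever they were fitted. With a minimum mean of 100 only 3 members entered (3 of 3 lower, 1 without overlap). The number of members without overlap, 2 in the report, was 1 with quantile normalization and 2 to 5 when 1 library was left out. Of all genes tested, 1.97% were lower without overlap with all libraries, 3.84% without D and 4.27% without E. That share was not taken for quantile normalization or a minimum mean of 100. DESeq2 called 1 member and 2 pathway genes, where it called 0.585% of all genes lower. Without library H it called 1 pathway gene, where it called 0.192% of all genes lower. With all libraries limma called 0 of each, where it called 0.0077% of all genes. The cause of this difference between tools was not tested. The log2 fold changes moved by less than the pooled SD between libraries within groups under every alternative. Nothing is read from this, because leaving out 1 library cannot move the fold changes by more than that SD. Over all alternatives run they ranged from -0.62 to -0.53 for Csf2ra, -0.69 to -0.52 for Csf3r, -0.60 to -0.45 for Csf2rb, -0.84 to -0.55 for Csf2rb2, -0.58 to -0.39 for Csf1, -0.25 to -0.12 for Csf1r and -0.30 to -0.0035 for Il34. Reads of 17 to 55 per library limit Il34 and Csf2rb2.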
